A study of Mus musculus with 9 samples.

Results

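Cxcl9, Cxcl10 and Cxcl11 encode 3 small secreted chemokines that share the receptor CXCR3. They are described here in bulk mRNA sequencing of cultured adipose-derived stem cells (ASCs) of C57BL/6 mice. They are 3 of the 54532 genes in the count table and were found in it by their symbols. The genes were chosen by their high expression in subcutaneous ASCs, so their levels in Sub-ASCs are given as a description without a test. Only PVASCs against Ab-ASCs was tested, and only Cxcl10 had enough reads in these groups for that test to be read.

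Chemokines are secreted proteins that guide the movement of leukocytes. CXCL9, CXCL10 and CXCL11 attract activated T cells and NK cells, on which CXCR3 is found, and fibroblasts, endothelial cells and macrophages make them after exposure to interferons. Interferon gamma acts through its receptor and the kinases JAK1 and JAK2, and the induced factor IRF1 and NF-kB add to transcription at the promoters of these genes. Cxcl9 is known to depend mostly on interferon gamma, whereas Cxcl10 also responds to type I interferons and to NF-kB.

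The ASCs were isolated by collagenase and dispase digestion from 3 fat depots. Sub-ASCs came from subcutaneous, Ab-ASCs from abdominal and PVASCs from perivascular adipose tissue. No allele and no added agent is named for any group, and all were grown in the same stem cell medium with serum, leukemia inhibitory factor and FGF before sequencing. Each group had 3 libraries. The age and sex of the mice and whether the libraries of a group came from separate animals or cultures are not given in the sources used here, so the p-values measure the spread between these libraries, which may be technical. The libraries held 20524173 to 29881036 assigned reads. The 8 stromal genes used as markers of the labelled cell type, among them Thy1 (CD90), Eng (CD105), Ly6a and Pdgfra, had reads in all groups, with summed levels of 17990 to 19120 CPM (counts scaled to library size) in Sub-ASCs, 6763 to 6914 in Ab-ASCs and 4679 to 4824 in PVASCs. Dcn carried much of the Sub-ASC sum, at 8858 CPM against 363 in Ab-ASCs and 112 in PVASCs, whereas Thy1 and Eng were highest in PVASCs. Of 16526 genes that passed the filter on low counts, 35.7% were called higher and 34.7% lower in Sub-ASCs than in PVASCs, 38.3% higher and 37.0% lower in Sub-ASCs than in Ab-ASCs, and 24.7% higher and 32.1% lower in PVASCs than in Ab-ASCs (edgeR quasi-likelihood test, adjusted p under 0.05). These percentages are the background against which the counts of genes below are to be read.

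The 3 genes lie side by side on the minus strand of chromosome 5 (GRCm38). Cxcl9 (ENSMUSG00000029417) spans chr5:92321347-92328079, Cxcl10 (ENSMUSG00000034855) spans chr5:92346638-92348889, and Cxcl11 (ENSMUSG00000060183) spans chr5:92359544-92365485. The first 2 are annotated as protein coding. Gaps of 18558 and 10654 bases part the neighbours. The RefSeq promoter table for GRCm38.p6 held 2 of the 3 genes. The 250 bases before the start of each are shown, because interferon and NF-kB are known to act on them. Capitals mark the matches to 5 short motifs that were searched on both strands, and positions count back from the base before the start, -1.
Cxcl9 promoter, chr5:92328080-92328329, minus strand: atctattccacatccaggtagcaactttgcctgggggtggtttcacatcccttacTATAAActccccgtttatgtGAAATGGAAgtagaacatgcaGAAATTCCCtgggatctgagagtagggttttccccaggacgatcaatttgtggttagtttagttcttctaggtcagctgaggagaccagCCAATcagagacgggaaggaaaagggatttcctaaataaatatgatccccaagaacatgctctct
Cxcl10 promoter, chr5:92348890-92349139, minus strand: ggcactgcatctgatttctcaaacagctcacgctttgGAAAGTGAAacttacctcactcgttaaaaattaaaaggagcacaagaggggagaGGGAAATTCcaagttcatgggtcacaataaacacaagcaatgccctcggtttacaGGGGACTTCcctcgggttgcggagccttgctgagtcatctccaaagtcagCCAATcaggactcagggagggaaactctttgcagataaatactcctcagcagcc
Both held the core of the interferon-stimulated response element, GAAANNGAA, which was found in 7.13% of the 32851 promoters of the table. It stood at -175 to -167 in Cxcl9 and at -213 to -205 in Cxcl10. The NF-kB letters GGGNNNTTC, found in 11.8% of promoters, occurred in Cxcl9 at -154 to -146 on the opposite strand and in Cxcl10 at -159 to -151 and -104 to -96. CCAAT, found in 33.8%, stood at -65 to -61 in Cxcl9 and at -54 to -50 in Cxcl10. Cxcl9 alone of the pair held TATAAA (12.4% of promoters), at -195 to -190. The letters TTCNNNGAA of the gamma-activated site were not in either window and were in 7.02% of all promoters. No searched motifs overlapped. The longest run of bases that the 2 windows shared on the same strand was CAGCCAATCAG, with 11 bases around the CCAAT letters, and 248 promoters of the table (0.755%) held it.

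Cxcl11 is annotated as a polymorphic pseudogene. C57BL/6 mice are known to carry a frameshift in it and to lack the protein. The annotation holds a pseudogene transcript of 4 exons and 3794 bases that reads straight through the coding part, and a protein-coding model of 5 exons and 1581 bases that steps over 2 bases of the genome, chr5:92363177-92363178, after 36 coding bases. The other gaps between exons of that model are 92 to 1820 bases long. The stretch is shown because any Cxcl11 reads below come from this allele, and the capitals are the 2 bases left out of the coding model.
Cxcl11, chr5:92363158-92363197, minus strand: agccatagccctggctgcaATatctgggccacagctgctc
The other 38 of the 40 bases shown belong to the coding part of the model.

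Cxcl9 was the most abundant of the 3 in Sub-ASCs and nearly absent elsewhere. The Sub-ASC libraries held 10194, 12572 and 11662 Cxcl9 reads. Ab-ASC libraries held 0, 0 and 1, and PVASC libraries held 3, 1 and 1. The groups did not overlap, and none of the 6 Ab-ASC and PVASC libraries exceeded 3 reads, the number that a count of 0 allows. In CPM the Sub-ASC level was 459 ± 30.8 (SD, n = 3). Over the summed reads of each group, Cxcl9 was 8603 times as high in Sub-ASCs as in PVASCs (95% counting interval 3686 to 26500) and 29190 times as high as in Ab-ASCs (5238 to 1153000). These intervals cover counting error only, and the width of the second comes from a single read in the denominator.

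Cxcl10 was lower than Cxcl9 in Sub-ASCs but was found in every library. Sub-ASC libraries held 2412, 2793 and 2622 reads. The Ab-ASC libraries held 10, 9 and 24 reads and the PVASC libraries 24, 29 and 38. Every Sub-ASC library was far above all others, and Ab-ASC replicate 3 reached the lowest PVASC library in reads, so that the Ab-ASC and PVASC libraries overlapped. The levels were 104 ± 4.95 CPM in Sub-ASCs, 0.669 ± 0.354 in Ab-ASCs and 0.975 ± 0.238 in PVASCs (SD, n = 3 each). The Sub-ASC level was 107.5 times that of PVASCs (95% counting interval 87.4 to 133.6) and 154.3 times that of Ab-ASCs (114.5 to 213.4).

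Cxcl11 was at the edge of detection. Its reads numbered 7, 11 and 4 in Sub-ASCs, 0, 0 and 0 in Ab-ASCs, and 1, 0 and 0 in PVASCs. All Sub-ASC libraries were above all others, and it did not pass the filter on low counts, so that 2 of the 3 genes entered the fit. Set against 3 reads in each Ab-ASC library, it was at least 2.07-fold higher in Sub-ASCs. Against the single PVASC read the ratio was 27.5, with a counting interval of 4.44 to 1134.

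**Figure D1:**
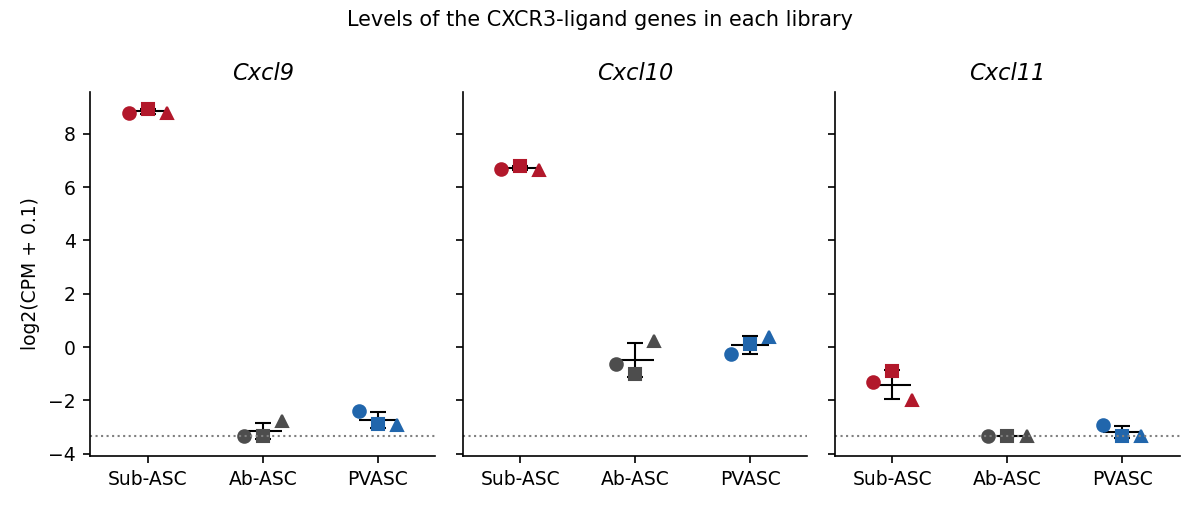
Level of Cxcl9, Cxcl10 and Cxcl11 in each of the 9 libraries, as log2(CPM + 0.1), by group. Circles, squares and triangles are replicates 1, 2 and 3, the long dash and bars are the mean ± SD over 3 libraries, and the dotted line is a count of 0. The Sub-ASC libraries stand above all others for each gene, and Cxcl10 is the only one clearly above the dotted line in all Ab-ASC and PVASC libraries.

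The ratio of Cxcl9 to Cxcl10 was steady within Sub-ASCs and differed elsewhere. Together the 3 genes took 0.0530, 0.0593 and 0.0532% of the reads of the Sub-ASC libraries. Those libraries held 4.23, 4.50 and 4.45 Cxcl9 reads per Cxcl10 read, whereas the PVASC libraries held 0.125, 0.0345 and 0.0263, and the Ab-ASC libraries 0, 0 and 0.0417. Thus Cxcl9 exceeded Cxcl10 in each Sub-ASC library, and Cxcl10 exceeded Cxcl9 in each of the other 6. Per length, in reads per kilobase of gene scaled to library size (FPKM), Cxcl9 was 3.16, 3.36 and 3.32 times as high as Cxcl10 in the Sub-ASC libraries. With the lengths of the longest protein-coding transcripts (2889 and 1353 bases) instead of the listed gene lengths (3016 and 2252 bases), these ratios were 1.98, 2.11 and 2.08. The listed length of Cxcl10 counts the bases of a transcript that keeps introns, and this choice moves its FPKM in Sub-ASCs from 45.4 ± 2.25 to 75.5 ± 3.75. Among all genes of a Sub-ASC library ranked by FPKM with listed lengths, Cxcl9 was between places 261 and 321, Cxcl10 between 982 and 1106, and Cxcl11 between 17994 and 20825.

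The spread between the Sub-ASC libraries was near the median of other expressed genes for Cxcl10 and above it for Cxcl9. The coefficient of variation of CPM was 6.71% for Cxcl9 and 4.74% for Cxcl10, beside a median of 4.68% over 9314 genes above 10 CPM in Sub-ASCs. Of these genes, 71.8% varied less than Cxcl9 and 50.9% less than Cxcl10. The genes compared were not matched for level.

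Between PVASCs and Ab-ASCs, Cxcl10 was not called different. For Cxcl10 the log2 fold change of PVASCs over Ab-ASCs was 0.52 with a standard error of 0.309 (edgeR quasi-likelihood test over 9 libraries, adjusted p = 0.170). Without Ab-ASC replicate 3, the library with 24 reads, it was 1.06 with an adjusted p of 0.0121, so that this library decides the call. Cxcl11 was not tested, and Cxcl9 passed the filter through its Sub-ASC reads alone. Both groups were at or under 3 reads in every library for these genes, so that neither a fold nor a call is given.

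Among the 28 chemokine genes of the lists, Cxcl9 stood in place 5 and Cxcl10 in place 9 by mean FPKM with listed gene lengths in Sub-ASCs. The mean of Cxcl9 was 149 ± 10.2 FPKM. Above it were Ccl8 (962), Cxcl12 (712), Ccl7 (322) and Ccl2 (285), and Cxcl5 followed at 100.3. The lowest of the Sub-ASC libraries for Cxcl9, at 142 FPKM, was above the highest for Cxcl5. Cxcl10, at 45.4 ± 2.25 FPKM, was within the spread of Ccl11, at 46.1, on these lengths. With the length of its longest protein-coding transcript Cxcl10 was at 75.5 ± 3.75, above the Ccl11 value on its listed length, so its place rests on the length used, and the other chemokines were not recomputed. In Ab-ASCs and PVASCs Cxcl10 stood in places 20 and 18 and Cxcl9 in places 23 and 24. Ccl2, the monocyte attractant, held the first place in both of those groups.

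**Figure D2:**
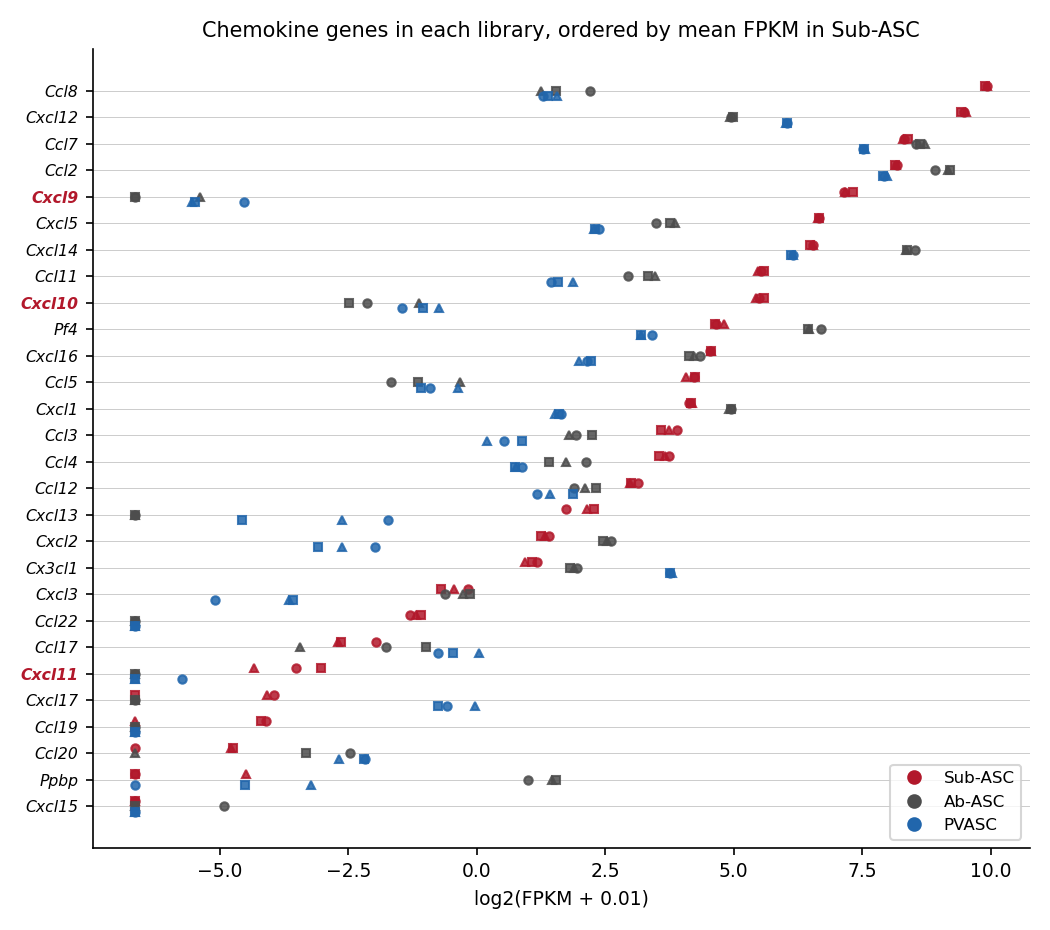
The 28 chemokine genes in each library as log2(FPKM + 0.01), with genes ordered from top to bottom by their mean in Sub-ASCs. Each mark is a library, with shapes for replicates 1 to 3 as circle, square and triangle, and marks at the left edge are counts of 0. Cxcl9 and Cxcl10 lie among the upper genes in Sub-ASCs and far to the left in the other groups, while the 3 groups lie close together for Ccl2 and Ccl7.

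The other chemokines did not share 1 direction. Of 12 tested CXC and CX3C chemokines, 9 were higher and 2 lower in Sub-ASCs than in PVASCs, whereas 4 were higher and 6 lower than in Ab-ASCs, with median log2 fold changes of 2.66 and -0.51 (over all tested genes 0.01 and 0.03). Both comparisons use the same Sub-ASC libraries. Without Cxcl13, which passed the filter through Sub-ASCs alone, 8 were higher and 2 lower, and 3 higher and 6 lower. The medians were then 2.58 and -0.84. Cxcl5, a neutrophil attractant, was higher in Sub-ASCs by 4.49 ± 0.0813 (log2, SE) over PVASCs and 2.87 ± 0.0743 over Ab-ASCs. Cxcl2, which also attracts neutrophils, was 4.02 ± 0.204 above PVASCs and fell by 1.28 against Ab-ASCs. Cxcl13, the B cell attractant, had 91, 145 and 137 reads in Sub-ASCs, 10, 1 and 5 in PVASCs and none in Ab-ASCs. Cxcl17 went the other way, with 15, 12 and 21 reads in PVASCs and at most 1 in any other library. Of 9 tested CC chemokines, 9 were higher in Sub-ASCs than in PVASCs, and 7 were higher and 2 lower than in Ab-ASCs, with medians of 3.34 and 1.82. Without Ccl22, which passed the filter through Sub-ASCs alone, 8 were higher and 0 lower, and 6 higher and 2 lower. The medians were then 3.18 and 1.75. Ccl8, a ligand for monocytes and T cells, rose by 8.66 ± 0.140 over PVASCs and 8.14 ± 0.139 over Ab-ASCs. Ccl5, another attractant of T cells, rose by 5.11 ± 0.185 and 5.05 ± 0.200, and the eosinophil attractant Ccl11 by 4.04 ± 0.126 and 2.19 ± 0.112. Ccl22 had 22, 28 and 27 reads in Sub-ASCs and none in the other 6 libraries. PVASCs against Ab-ASCs gave 4 higher and 8 lower CXC and CX3C chemokines, and 0 higher and 6 lower CC chemokines, with medians of -2.42 and -1.20 (over all tested genes -0.06). Cxcl13 and Ccl22 passed the filter through Sub-ASCs alone, and without them the counts were 3 higher and 8 lower, and 0 higher and 6 lower. These counts still hold Cxcl17, and Ppbp with 44, 74 and 71 reads in Ab-ASCs and at most 3 in any other library. Each passed the filter only through the group where it was high. The tested difference of Cxcl10 in PVASCs against Ab-ASCs, 0.52, was on the other side of 0 from the medians and not called.

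On the chromosome, 21 further genes of the table lay within 250 kb of the 3 genes, and 11 of them were tested. Against PVASCs, 4 were higher and 7 lower in Sub-ASCs. Against Ab-ASCs, 4 were higher, 6 lower and 1 was not called. The median log2 fold change of the neighbours was -0.37 and -0.42. Art3, an ADP-ribosyltransferase gene on the plus strand whose span holds Cxcl10 and Cxcl11, stood apart with 514, 602 and 556 reads in Sub-ASCs, 3, 2 and 6 in Ab-ASCs and 28, 29 and 18 in PVASCs. Its log2 fold change was 4.79 ± 0.156 over PVASCs and 6.97 ± 0.219 over Ab-ASCs. An Art3 exon at chr5:92345112-92346770 covers the last 133 bases of Cxcl10, chr5:92346638-92346770, and the strand setting of the counting is not given, so reads of Art3 and Cxcl10 cannot be told apart there. Art3 reads per Cxcl10 read were 0.213, 0.216 and 0.212 in the Sub-ASC libraries, 0.300, 0.222 and 0.250 in Ab-ASCs, and 1.17, 1.00 and 0.474 in PVASCs. Cxcl9 and Cxcl11 share no exon bases with Art3.

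The remaining neighbours moved far less than Cxcl9 and Cxcl10. Naaa, a lysosomal amidase gene, was higher in Sub-ASCs by 1.60 ± 0.117 over PVASCs and 1.77 ± 0.122 over Ab-ASCs. Scarb2, for a lysosomal membrane protein, was higher by 0.67 and 0.36, and G3bp2, for a stress granule protein, by 0.21 and 0.45. Lower in Sub-ASCs in both comparisons were Uso1, Gm15710, U90926, Sdad1, Nup54 and Stbd1, of which Stbd1 fell by 2.14 and 2.46. Ccdc158 was lower than in PVASCs by -2.42 ± 0.478 and was not called against Ab-ASCs. The calls of Gm15710 and U90926 against PVASCs were lost under some alternatives, as when Sub-ASC replicate 2 was left out (adjusted p = 0.0811 and 0.0988, edgeR). PVASCs against Ab-ASCs gave 3 neighbours higher, 4 lower and 4 not called.

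**Figure D3:**
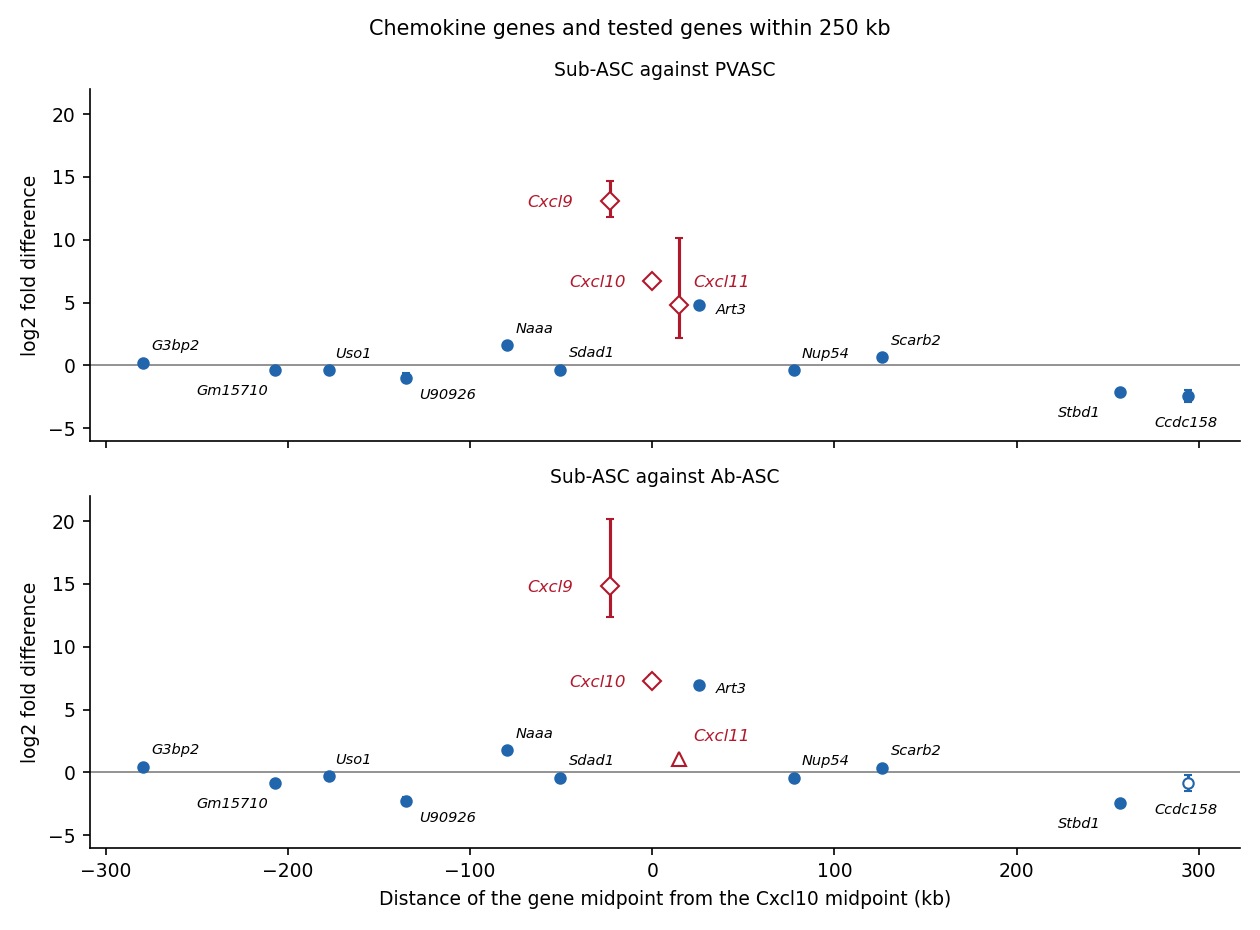
Log2 fold difference of Sub-ASCs over PVASCs (top) and over Ab-ASCs (bottom) against the distance of each gene's midpoint from that of Cxcl10, in kilobases. Blue points are the 11 tested neighbours with their standard errors (open where not called), red diamonds are ratios of summed reads with 95% counting intervals for the chemokine genes, and the red triangle is the lower bound for Cxcl11. Art3 lies between 4.79 and 6.97, near Cxcl10, and the other neighbours lie between -2.46 and 1.77.

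The receptor was barely detected, whereas Ackr3, Ackr1 and Dpp4, of the list for receptors and ligand handling, were higher in Sub-ASCs than in both other groups. Cxcr3, the receptor of all 3 ligands, had 3, 4 and 4 reads in Sub-ASCs, 0, 0 and 2 in Ab-ASCs and 1, 0 and 1 in PVASCs, and was not tested. Of the 6 tested genes of that list, 6 were higher in Sub-ASCs than in PVASCs, and 3 were higher and 2 lower than in Ab-ASCs (medians 3.20 and 1.56). Ackr3, a scavenging receptor for CXCL11 and CXCL12, had 9274 to 10651 reads in Sub-ASCs and rose by 4.28 ± 0.102 over PVASCs and 4.45 ± 0.105 over Ab-ASCs. Dpp4, the surface peptidase that trims the N terminus of the 3 ligands, rose by 5.68 ± 0.160 and 3.05 ± 0.131. Ackr1, a scavenging receptor of many chemokines, rose by 5.46 ± 0.225 and 4.78 ± 0.226. Mmp8, a collagenase, was 2.13 ± 0.166 above PVASCs and fell by 1.45 against Ab-ASCs.

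Among the listed interferons and cytokines that induce these genes, Ifng was the only interferon with more than 2 reads in any library. Of the Ifna genes, only Ifna1, Ifna2, Ifna4 and Ifna5 were listed. Sub-ASC libraries held 64, 49 and 56 Ifng reads, Ab-ASC libraries none, and PVASC libraries 0, 17 and 0. Every Sub-ASC library was above every other. PVASC replicate 2, with 17 Ifng reads, had 1 Cxcl9 read and 29 Cxcl10 reads, which was between the other PVASC libraries for Cxcl10. The log2 fold change of Ifng over PVASCs was 3.59 ± 0.744, and 8.84 without PVASC replicate 2. Ifng passed the filter through its Sub-ASC reads alone, so these values are a description and no p-value is given. Ifna1, Ifna2, Ifna4, Ifnk, Ifnl2 and Ifnl3 had no reads in any library. Ifnb1 and Ifna5 had 1 read each, in a PVASC library. Tnf, which acts through NF-kB, had 61, 66 and 77 reads in Sub-ASCs, 42, 44 and 34 in Ab-ASCs and 13, 12 and 16 in PVASCs. It was 2.62 ± 0.227 higher in Sub-ASCs than in PVASCs and 0.52 ± 0.192 higher than in Ab-ASCs, and the second call was lost under 5 alternatives, for example without Ab-ASC replicate 3 (0.37, adjusted p = 0.12, edgeR). In this list, 3 of 15 genes were tested, of which 2 were higher and 0 lower in Sub-ASCs than in PVASCs and 2 higher and 1 lower than in Ab-ASCs. The medians over these 3 genes were 2.62 and 0.52. Without Ifng, 1 was higher and 0 lower than in PVASCs, and 1 higher and 1 lower than in Ab-ASCs. The medians were then 1.66 and -1.13.

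Most genes of the signal path were higher in Sub-ASCs, among them Irf7, Irf1 and Stat2. Of 16 tested genes of the path, 14 were higher and 1 lower in Sub-ASCs than in PVASCs, and 12 were higher and 3 lower than in Ab-ASCs (medians 1.20 and 1.07). Irf1, a transcription factor that interferon gamma induces, had 7440, 7648 and 8692 reads in Sub-ASCs, 450, 443 and 504 in Ab-ASCs and 501, 442 and 480 in PVASCs. Its log2 fold change was 4.38 ± 0.0787 over PVASCs and 3.84 ± 0.0773 over Ab-ASCs. Stat2, which acts downstream of type I interferons, rose by 3.77 ± 0.0546 and 4.49 ± 0.0583, and Irf7 by 5.12 ± 0.125 and 4.86 ± 0.126. The receptor chain Ifngr2 was the gene that was lower in both comparisons, by -0.71 and -0.88. Of the 10 brakes on the pathway, 10 were higher than in PVASCs, and 7 were higher and 2 lower than in Ab-ASCs (medians 1.47 and 0.75). The JAK inhibitor Socs1 rose by 3.42 ± 0.0991 and 3.64 ± 0.105, and its relative Socs3 by 2.80 ± 0.0656 and 2.95 ± 0.0666. Usp18, which blocks the type I interferon receptor, rose by 3.51 ± 0.0994 and 4.26 ± 0.114, and Irf2, an antagonist of IRF1, by 2.0 ± 0.0646 and 2.11 ± 0.0668. Between PVASCs and Ab-ASCs, 3 genes of the path were higher and 8 lower in PVASCs, and among the brakes 2 were higher and 4 lower, with medians of -0.22 and 0.13.

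Other genes known to respond to interferons were higher in Sub-ASCs for both kinds of interferon. All 8 genes listed as most responsive to interferon gamma were tested and were higher in Sub-ASCs than in PVASCs and than in Ab-ASCs, with medians of 6.38 and 6.50, or 5.99 and 6.50 when a group without reads was set to 3 reads per library. Of the 8, 4 passed the filter on low counts through their Sub-ASC reads alone and had to differ, and the medians of the other 4 were 6.34 and 5.38. Nos2, the inducible nitric oxide synthase, had 5232, 6292 and 6090 reads in Sub-ASCs, 16, 19 and 8 in Ab-ASCs and 6, 14 and 0 in PVASCs. H2-Aa, a chain of MHC class II, had 221, 225 and 250 reads in Sub-ASCs, 1, 2 and 0 in Ab-ASCs and none in PVASCs. Cd74, the MHC class II invariant chain, rose by 8.36 ± 0.300 over PVASCs and 6.61 ± 0.270 over Ab-ASCs, and the immunoproteasome gene Psmb9 by 7.37 ± 0.127 and 6.56 ± 0.124. The 8 genes listed as most responsive to type I interferon were likewise all tested and higher in both comparisons, with medians of 4.23 and 6.03, and 1 of them passed the filter through Sub-ASCs alone. Ifit3 rose by 4.29 ± 0.105 and 6.87 ± 0.142, Mx1 by 4.65 ± 0.381 and 6.52 ± 0.534, Mx2 by 4.36 ± 0.192 and 6.28 ± 0.264, and Oas1a by 4.52 ± 0.151 and 2.66 ± 0.132. Mx2, like Cxcl11, is annotated as a polymorphic pseudogene.

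Between PVASCs and Ab-ASCs, the genes that passed the filter through Sub-ASCs alone carry no weight. These were Ciita, Ido1, H2-Aa and Cd74 of the interferon gamma list, with at most 11 reads in a PVASC or Ab-ASC library, and Mx1 of the type I list, with at most 5. Of the other 4 interferon gamma genes, 0 were higher and 4 lower in PVASCs (median -0.97), but the call of Nos2 was lost under 5 alternatives, with DESeq2 (adjusted p = 0.0659), with only the groups compared, and without Ab-ASC replicate 2, PVASC replicate 1 or PVASC replicate 3. Of the other 7 type I genes, 6 were higher and 1 lower (median 1.92). Ifit3 was 2.58 ± 0.178 higher in PVASCs, with 149, 187 and 165 reads against 12, 23 and 22 in Ab-ASCs, while Oas1a fell by 1.86. The log2 fold change of Cxcl10 in this pair was 0.52 and was not called. Whether the 2 lists differ from each other was not tested.

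**Figure D4:**
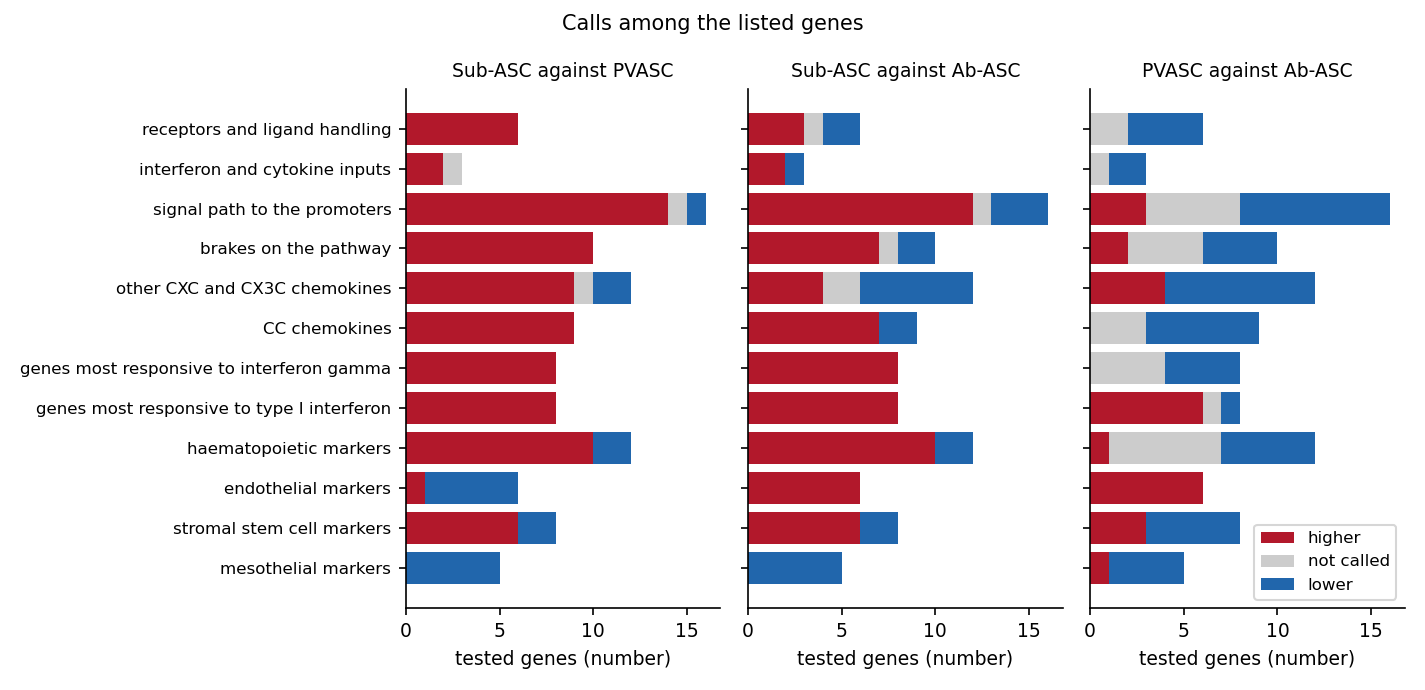
Number of tested genes called higher, not called and called lower in each of the 12 lists, for the 3 pairs of groups (edgeR, adjusted p under 0.05). Both interferon lists are 8 of 8 higher in Sub-ASCs in the first pair of panels, while in PVASCs against Ab-ASCs 6 type I genes are higher and 4 interferon gamma genes are lower. Of these 2 lists, 4 interferon gamma genes and 1 type I gene passed the filter through Sub-ASCs alone. Ifng, Cxcl13, Ccl22, Nkg7 and Cd79a of the other lists did so too.

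Genes of other cell types moved with the groups too. In bulk libraries a change in the number of cells of a type cannot be told apart from a change in RNA per cell. Of 12 tested haematopoietic markers, 10 were higher and 2 lower in Sub-ASCs in each comparison with another group (medians 1.27 and 0.81). Nkg7 and Cd79a passed the filter through Sub-ASCs alone and had to differ. Without them 8 were higher and 2 lower in each comparison (medians 1.01 and 0.61). Their summed level was nevertheless 288 to 298 CPM in Sub-ASCs, 325 to 426 in Ab-ASCs and 313 to 323 in PVASCs, a sum in which the macrophage gene Lyz2 weighs most and was lower in Sub-ASCs. Csf1r was the other marker that was lower in Sub-ASCs, by -0.38 ± 0.0799 against PVASCs and -0.96 ± 0.0801 against Ab-ASCs. The pan-leukocyte gene Ptprc was higher in Sub-ASCs by 1.67 ± 0.150 over PVASCs and 2.64 ± 0.178 over Ab-ASCs. Itgax was higher by 3.08 ± 0.301 and 2.03 ± 0.287. The B cell gene Cd79a had 14, 13 and 23 reads in Sub-ASCs, 1, 5 and 4 in Ab-ASCs and 3, 4 and 5 in PVASCs. Nkg7, of cytotoxic lymphocytes, had 20, 13 and 13 reads in Sub-ASCs, 0, 0 and 1 in Ab-ASCs and 0, 2 and 0 in PVASCs. Cd3e, which defines T cells, had 7 reads in each Sub-ASC library and none in the other 6, and Flt3 had 3, 0 and 1 reads in Sub-ASCs and none elsewhere. The part of these cells in the levels of Cxcl9, Cxcl10 and Cxcl11 was not tested.

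T and NK cells are known makers of interferon gamma, and a list of 24 of their genes was added after the values had been seen. The list summed to 25.5, 27.8 and 29.1 CPM in the Sub-ASC libraries, 7.68, 9.56 and 8.29 in Ab-ASCs and 5.53, 6.07 and 4.99 in PVASCs. Trdc, Gzmb, Il7r and Il2rb carried most of the Sub-ASC sum, at 5.52, 5.98, 3.88 and 2.86 CPM, whereas Cd3e was at 0.281. Trdc also carried most of the Ab-ASC sum, at 4.85 CPM. Lck was at 1.99 CPM in Sub-ASCs, 0.262 in Ab-ASCs and 1.69 in PVASCs. Of the 24 genes, 22 to 24 had a read in a Sub-ASC library, 8 to 10 in an Ab-ASC library and 10 to 15 in a PVASC library. Their mean level was highest in Sub-ASCs for 21 genes, and Trac, Eomes and Klrb1c were the exceptions. No share over all genes is given for this count or the next, and both are descriptions. A total of 7 genes, Cd3e, Cd3g, Cd2, Tbx21, Ncr1, Klrk1 and Prf1, had reads in every Sub-ASC library and none outside. Prf1, for perforin, had 8, 30 and 22 reads, and Cd8a, of cytotoxic T cells, had 20, 12 and 23 in Sub-ASCs and 1 read elsewhere. Gzmb, for granzyme B, had 128, 153 and 169 reads in Sub-ASCs, 9, 9 and 7 in Ab-ASCs and 0, 25 and 0 in PVASCs. The PVASC library with the Gzmb reads was replicate 2, which also held the Ifng reads of that group. Trac was the other way round, with 33 reads over all Sub-ASC libraries, 33 over Ab-ASCs and 122 over PVASCs. Eomes had 7 reads over Sub-ASCs, 19 over Ab-ASCs and 21 over PVASCs, and Klrb1c had 3, 1 and 4. The part of T and NK cells in the result was not tested.

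**Figure D5:**
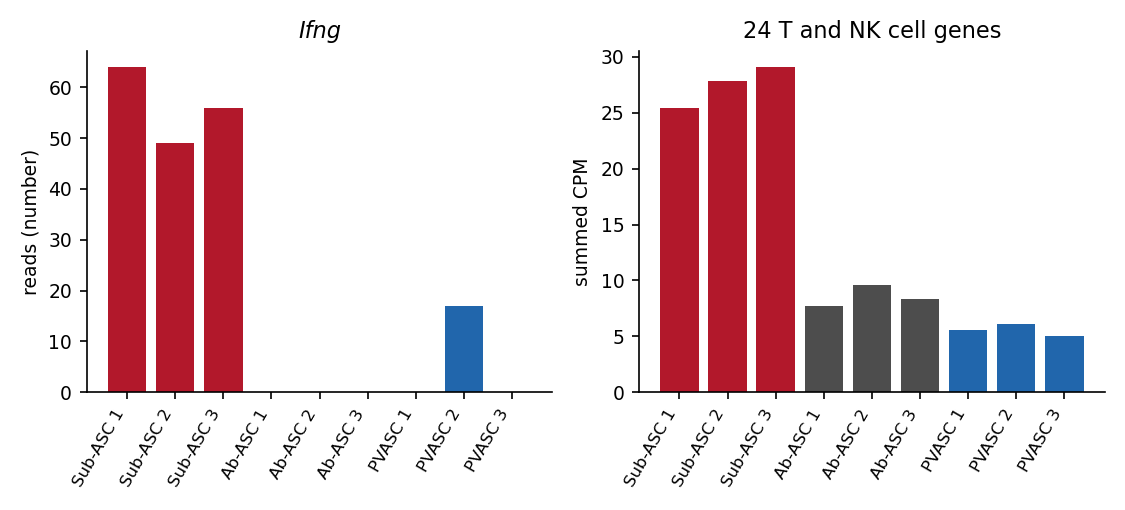
Ifng reads (left) and the summed CPM of the 24 T and NK cell genes (right) in each library, as bars from 0. The Sub-ASC libraries hold 49 to 64 Ifng reads and 25.5 to 29.1 CPM of the listed genes, and PVASC replicate 2 is the only other library with Ifng reads.

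The remaining cell type lists differed in direction. Of 6 endothelial markers, 5 were lower and 1 higher in Sub-ASCs than in PVASCs and 6 were higher than in Ab-ASCs (medians -2.08 and 1.57), with sums of 176 to 191 CPM in Sub-ASCs, 63.7 to 66.2 in Ab-ASCs and 764 to 768 in PVASCs. Emcn, Tie1, Cdh5 and Pecam1 fell by 3.79, 2.44, 2.17 and 1.99 against PVASCs. The 5 mesothelial markers were all lower in Sub-ASCs than in both other groups (medians -4.61 and -7.14, or -4.04 and -6.56 with empty groups at 3 reads), with sums of 1.26 to 2.28 CPM in Sub-ASCs, 78.1 to 82.3 in Ab-ASCs and 29.9 to 30.7 in PVASCs. Lrrn4 was at 0 in all Sub-ASC libraries, Msln had 1 read and Upk3b 5 over the group, and Wt1 had 45. Of the 8 stromal markers, 6 were higher and 2 lower in Sub-ASCs in each comparison (medians 1.76 and 1.57), and the proteoglycan genes Lum and Dcn rose most against PVASCs, by 6.79 and 6.31, followed by Ly6a at 4.20 and Pdgfra at 3.03. The 2 lower against PVASCs were Thy1 and Eng, by -1.41 and -1.60. In PVASCs against Ab-ASCs the endothelial list was 6 higher, the mesothelial list 1 higher and 4 lower, the stromal list 3 higher and 5 lower, and the haematopoietic list 1 higher and 5 lower.

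The genes whose profile over the 9 libraries was most like that of Cxcl9, by root mean square distance of centred log2(CPM + 0.1), were Gbp4 (0.45), Wnt16 (0.83), Gbp10 (0.88), Gm12250 (1.20) and Gbp11 (1.23). Gbp4 was at 468 ± 34.4 CPM in Sub-ASCs, near the 459 of Cxcl9, and at 0.0149 in Ab-ASCs and 0.108 in PVASCs. The Gbp genes, Gbp2 of the interferon gamma list included, encode guanylate-binding proteins of a multigene family, and whether reads were shared among them was not tested. The nearest to Cxcl10 were Ifi208 (0.35), Sfrp2 (0.35), Irgm2 (0.36), Serpina3m (0.37) and Cyp2f2 (0.39). Irgm2 was at 571 ± 17.2 CPM in Sub-ASCs, 3.82 in Ab-ASCs and 6.40 in PVASCs, and Sfrp2, a secreted Wnt modulator, at 316 ± 3.50, 2.17 and 4.07. Cxcl9 and Cxcl10 were themselves 2.32 apart. These names depend on the measure of likeness. With 1 in place of 0.1 added, 1 of the 5 for Cxcl9 (Gbp4) and 0 of those for Cxcl10 remained, and by Pearson correlation 0 remained for either.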

How the data were processed

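Bulk mRNA sequencing of 9 ASC libraries was analysed, 3 each of Sub-ASCs, Ab-ASCs and PVASCs, grouped by the labels. The authors deposited raw read counts per gene with gene length and position. The submitters' processing notes name CASAVA 1.8, Bowtie 0.12.2 and featureCounts 1.5.0-p3, and list mm8 and mm10. The strand setting is not given in the sources used here, and the positions are those of GRCm38.

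Counts were filtered by filterByExpr (16526 genes kept), normalized by TMM and fitted over all 9 libraries with edgeR 4.0.16 in R 4.3.3, with a quasi-likelihood test per pair of groups, Benjamini-Hochberg adjustment over all genes and a threshold of 0.05. The test was run on simulated data first. CPM used TMM-scaled totals, and FPKM the listed length and the library total. Intervals of read ratios are exact at 95%, and 3 reads is the floor for a count of 0, which is 0.0917 to 0.161 CPM. Genes with fewer than 3 libraries outside Sub-ASCs at the level that the filter asks for, 10 reads in a library of median size, were taken as passing through Sub-ASCs alone, a split chosen with the values known. The genes and lists were chosen with earlier results of these data known. Named from each list were up to 4 genes called in Sub-ASCs against PVASCs with the largest change, beside Cxcr3, Ackr3, Dpp4, Ifng, Ifnb1, Tnf, Irf1 and Socs1 whatever their values, the genes without reads (1 gene of the rule is not reported here), all tested neighbours within 250 kb, and the 5 nearest profiles. Ifngr2, Gbp2, Ciita, Ido1, Lyz2, Csf1r, Thy1, Eng, Flt3, Ifna5, Ccl2, Ccl7, Cxcl12, Ppbp and the T and NK cell genes were named after their values were seen. Alternatives were DESeq2 1.42.0, RLE size factors, no filter, a replicate block, only the groups compared, each library left out, other measures of likeness and, chosen after seeing the data, the length of the longest protein-coding transcript. Exons came from GENCODE M21, and tables and plots from pandas 2.3.3, numpy 2.4.6, scipy 1.17.1 and matplotlib 3.10.9.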

Additional observations from a re-analysis of the deposited data

How the results depend on the processing

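Over 400 results and 18 settings, 5371 of 5471 recomputed values kept their direction and their side of the threshold or stayed near their value, and none reversed. Calls of single genes were lost for 72 of 4240 values. Leaving out each library in turn moved the log2 fold change of Cxcl10 in PVASCs over Ab-ASCs between 0.23 (without Ab-ASC replicate 2) and 1.06 (without Ab-ASC replicate 3, adjusted p = 0.0121, edgeR), and it was called only in the latter. With a replicate block it was 0.53 (adjusted p = 0.199, edgeR), and DESeq2 gave 0.55 (adjusted p = 0.088). Same-numbered libraries of different groups did not deviate together (correlations of -0.0514 to 0.0950), so the numbers were not treated as pairs. The block changed the calls over all genes from 11628, 12442 and 9396 to 11458, 12302 and 9183 for Sub-ASCs against PVASCs, Sub-ASCs against Ab-ASCs and PVASCs against Ab-ASCs. The mean FPKM ratio of Cxcl9 to Cxcl10 in Sub-ASCs fell from 3.28 to 2.06 with coding transcript lengths, by the construction of that alternative. Cxcl9 and Cxcl11 had at most 3 reads in any Ab-ASC or PVASC library, so differences between those groups were not detectable at this depth.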
